A study of Mus musculus with 2 samples.

Results

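The interferon-stimulated and MHC class I genes of 4T1 cells form a set of 44 genes, chosen by name out of the 52796 rows of the expression table. Their symbols were matched to the Ensembl identifiers of the table, and all 44 were found once. The rule that picks them uses no measured value, although the set was drawn up with earlier results of these data known. 4T1 is a mouse mammary carcinoma line. It was cultured alone in the control group, whose values are given below as "alone". In the co-culture group the 4T1 cells occupied the lower chamber of a transwell and M2 macrophages, the alternatively activated type, the upper chamber, for 3 days. The labels name no allele, agent or drug in either group. The labels do not give the origin of the macrophages, how they were polarised or how the control cells were kept. Messenger RNA was sequenced from 1 library per group, so there is no replicate error, every value below is a single measurement, and each difference is a difference between these 2 libraries. The title of the co-culture library calls its cells 4T2, whereas its treatment label and the table's column call them 4T1.

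Interferons are secreted proteins, and those of type I are released when cells sense viral or misplaced nucleic acid. RIG-I-like receptors detect RNA and signal through MAVS, while cGAS detects cytosolic DNA and signals through STING, and both routes activate the factors IRF3 and IRF7. Type I interferon then acts through IFNAR1 and IFNAR2, JAK1 and TYK2 to form the complex ISGF3, of which IRF9 is a part and which binds the interferon-stimulated response element (ISRE). Interferon gamma acts through JAK1 and JAK2 and leads to binding at the gamma-activated site (GAS). MHC class I molecules carry peptides of cellular proteins to the surface for inspection by CD8 T cells, and most of their genes respond to both kinds of interferon. The tumour cell's own level of these genes bears on how visible it is to T cells.

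The members ranged from 0 to 776 TPM without a gap at 1 TPM, the limit of detection used here, and the share above it differed between roles. TPM is a transcript abundance that is corrected for transcript length and adds up to the same total in each library, so levels can be compared between genes. Of the 44 members, 30 reached a mean of at least 1 TPM over both libraries and are called detected here. All 11 MHC class I genes and all 5 interferon regulatory factors were detected. So were 3 of 5 sensors and adaptors, 11 of 20 antiviral effectors and none of the 3 guanylate-binding protein genes. Among all protein-coding genes of the annotation 47.6% were detected.

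**Figure D1:**
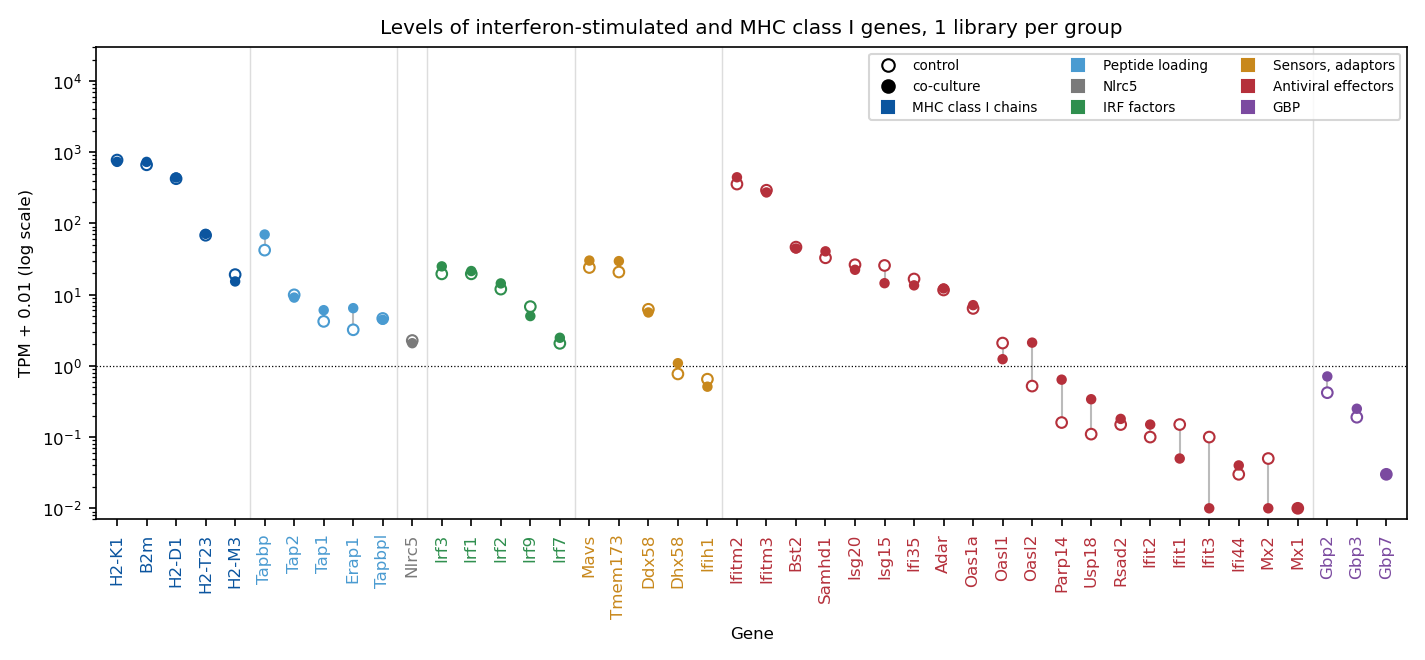
Level of each of the 44 genes, as TPM + 0.01 on a log axis, with the control library as an open circle and the co-culture library as a filled circle joined by a line. Genes are grouped by role and ordered by mean level, and the dotted line marks 1 TPM. The MHC class I genes lie between 2.07 and 776 TPM, whereas the 3 GBP genes and 9 of the 20 effectors have means under 1 TPM.

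Levels in co-culture stayed near those of the control for most detected members. A ratio is given throughout as log2((co-culture TPM + 1)/(control TPM + 1)), a scale that understates the change of low genes. At the 2-fold threshold 1 of 30 detected members was higher and 0 were lower, with no test possible at 1 library per group. Of all 11258 detected genes 4.95% were at least 2-fold higher and 2.14% were at least 2-fold lower. When the libraries were scaled by the trimmed mean of log ratios (TMM) those shares became 3.06% and 3.14%, and no member was past the threshold. At 1.5-fold 3 members were higher and 1 was lower, against 18.7% and 6.38% of all detected genes. The other 26 members, 86.7% of those detected, lay within 1.5-fold, as did 75% of all detected genes. The median ratio was 0.07 for the members and 0.17 for all detected genes, and 17 of the 30 members, or 56.7%, had a higher value in co-culture, against 64.5% of all detected genes. With the median ratio scaling 14 members had a higher value, and with TMM scaling 11 did, while the median of all detected genes became 0.06 and -0.01.

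**Figure D2:**
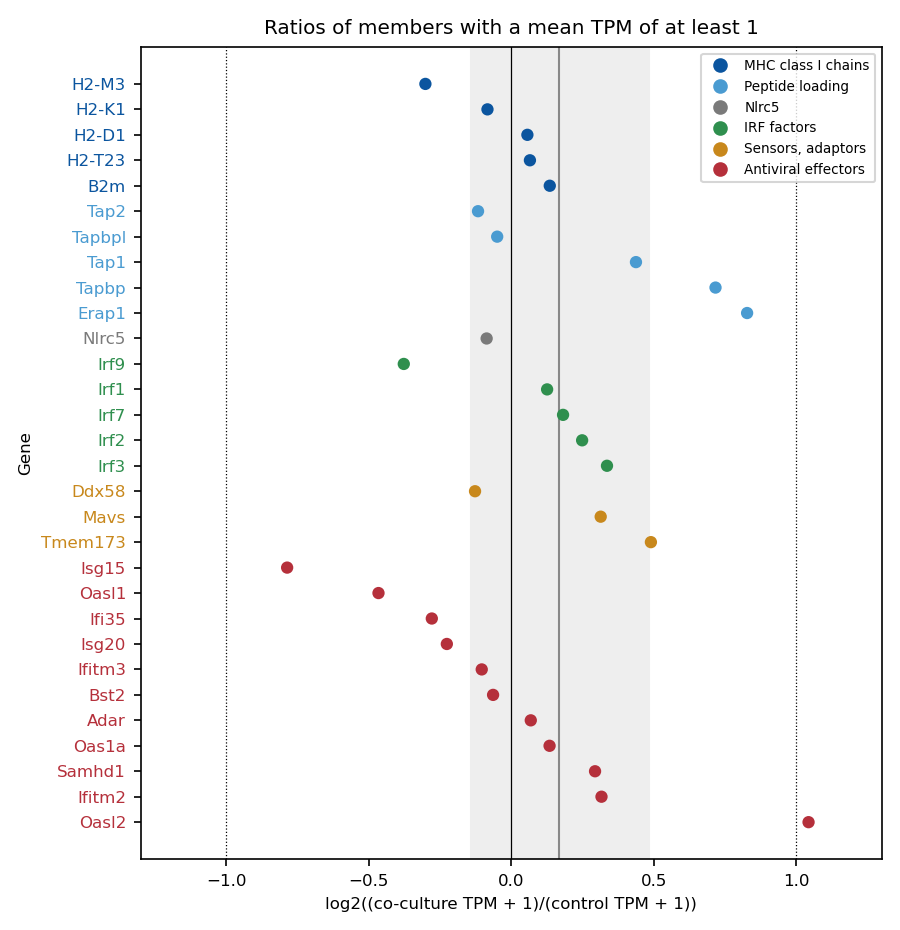
log2 ratio of co-culture over control (TPM + 1) for the 30 members with a mean of at least 1 TPM, coloured by role, 1 point per gene. The grey band spans the 25th to 75th percentile of all detected genes (-0.14 to 0.48), the grey line is their median (0.17) and the dotted lines mark 2-fold. Only Oasl2 reaches the 2-fold line, and Isg15 has the lowest ratio.

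Of the MHC class I chains, H2-K1, H2-D1 and B2m were among the abundant transcripts of 4T1 cells, and their ratios were between -0.08 and 0.13. H2-K1 (ENSMUSG00000061232, chromosome 17 of GRCm38 from 33996017 to 34000347), a classical heavy chain gene, had 776 TPM alone and 732 TPM in co-culture. Its ratio was -0.08, and it ranked 196th among detected genes in the control and 199th in co-culture. H2-D1, the other classical heavy chain of the reference genome, had 424 TPM alone and 441 TPM in co-culture (ratio 0.06). B2m (ENSMUSG00000060802, chromosome 2 from 122147686 to 122153083) encodes beta-2-microglobulin, the light chain that every heavy chain needs. It had 666 TPM alone and 731 TPM in co-culture, a ratio of 0.13. The summed TPM of H2-K1 and H2-D1 was 1.80 times that of B2m in the control and 1.61 times in co-culture. Of the non-classical heavy chains, H2-T23 encodes Qa-1, which presents leader peptides to natural killer cell receptors, and had 68.2 TPM alone and 71.4 TPM in co-culture. H2-M3, which presents N-formylated peptides, had 19.1 TPM and 15.3 TPM, the lowest ratio of the group at -0.30. All 5 chains lay within 1.5-fold, and their summed level was 1953 TPM alone and 1991 TPM in co-culture. All 5 ratios were below the median of all detected genes, 0.17. When the median ratio of genes with at least 10 TPM was taken as the scale, which divides the co-culture TPM by 0.12 on the log2 scale, the ratios of H2-D1 and H2-T23 became -0.06 and -0.05, and with TMM scaling that of B2m was -0.05.

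The peptide supply genes lay between 3.20 and 69.9 TPM, and 2 of the 5 were at least 1.5-fold higher, against 18.7% of all detected genes. Erap1 (ENSMUSG00000021583, chromosome 13 from 74639568 to 74693201), the ER aminopeptidase that trims peptides to the length MHC class I accepts, had 3.20 TPM alone and 6.45 TPM in co-culture. Its ratio of 0.83 was the highest of the 11 MHC class I members and lay at the 91.2nd percentile of detected genes. Erap1 overlaps Cast on the opposite strand, and Cast had 19.9 TPM alone and 26.8 TPM in co-culture. The sources used here do not say whether the libraries kept strand, so reads of the overlap cannot be told apart. Tapbp (chromosome 17 from 33915899 to 33929292) encodes tapasin, which bridges the peptide transporter and the heavy chain, and had 42.1 TPM alone and 69.9 TPM in co-culture (ratio 0.72). Its span overlaps that of Zbtb22 on the same strand, which was level at 24.6 TPM and 24.7 TPM.

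The genes of the TAP transporter, which pumps peptides into the ER, had ratios of opposite sign. Tap1 had 4.20 TPM alone and 6.04 TPM in co-culture, a ratio of 0.44. Tap2 had 9.93 TPM and 9.08 TPM, a ratio of -0.12. Tap1 overlaps the immunoproteasome gene Psmb9 on the opposite strand, and Psmb9 had 1.28 TPM alone and 3.03 TPM in co-culture. Tapbpl, the tapasin-related editor of peptides, had 4.62 TPM and 4.43 TPM. Nlrc5, the transactivator of MHC class I genes, was low in both libraries at 2.26 TPM and 2.07 TPM. Over the 5 peptide supply genes the median ratio was 0.44, with 3 of 5 higher and 2 of those past 1.5-fold. With a pseudocount of 5 this median was 0.26. Of all detected genes 64.5% had a higher value and 18.7% were at least 1.5-fold higher, with a median of 0.17.

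The interferon regulatory factors were present at modest levels and lay within 1.5-fold. Irf3, the factor that sensors activate by phosphorylation, had the highest mean over both libraries, with 19.6 TPM alone and 24.9 TPM in co-culture (ratio 0.34). Irf1, which responds to interferon gamma and drives MHC class I genes, had 19.6 TPM and 21.4 TPM, a ratio of 0.13 that was -0.06 with TMM scaling. Irf2, often an antagonist of IRF1, had 11.9 TPM and 14.4 TPM. Irf9, the DNA-binding part of ISGF3, was the only one of the 5 with a lower value in co-culture, at 6.78 TPM alone and 4.99 TPM in co-culture (ratio -0.38). Its neighbour Rnf31 overlaps it on the same strand and was also lower, at 13.3 TPM and 8.39 TPM. Irf7, the factor that amplifies type I interferon production and is itself induced by it, was scarce at 2.06 TPM and 2.47 TPM. Irf7 overlaps Phrf1 on the opposite strand, which had 32.2 TPM alone and 32.0 TPM in co-culture. The median ratio of the 5 factors was 0.18, close to that of all detected genes.

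Among the sensing genes the adaptors were more abundant than the receptors. Tmem173, the gene of STING, had 20.8 TPM alone and 29.6 TPM in co-culture, a ratio of 0.49 at the 75.5th percentile of detected genes. Mavs, the mitochondrial adaptor of the RNA receptors, had 24.02 TPM and 30.1 TPM (ratio 0.31). Ddx58, which encodes RIG-I, had 6.22 TPM and 5.61 TPM (ratio -0.13). The other RNA receptors were under the detection limit. Ifih1, the gene of MDA5, had 0.64 TPM alone and 0.50 TPM in co-culture. Dhx58, the gene of LGP2, had 0.76 TPM and 1.08 TPM.

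The antiviral effectors ranged from 0 to 445 TPM. At the top were Ifitm2 and Ifitm3, membrane proteins that block fusion of viruses with endosomes. Ifitm2 had 357 TPM alone and 445 TPM in co-culture, while Ifitm3 had 293 TPM and 272 TPM, so that Ifitm2 exceeded Ifitm3 by 1.22 times in the control and by 1.63 times in co-culture. These 2 genes have close relatives, which limits how far their values can be separated. Bst2 encodes tetherin, which holds budding virus at the cell surface, and was level at 46.5 TPM and 44.4 TPM. Samhd1, a hydrolase of deoxynucleotides, had 32.9 TPM and 40.6 TPM. Adar, the RNA-editing enzyme that marks self double-stranded RNA, had 11.6 TPM and 12.2 TPM, a ratio of 0.07 that became -0.04 with the median ratio scaling. Isg20, an RNA exonuclease, had 26.3 TPM alone and 22.3 TPM in co-culture (ratio -0.23). Ifi35 had 16.6 TPM and 13.5 TPM (ratio -0.28).

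Isg15 had the lowest ratio of all 30 detected members. Isg15 (ENSMUSG00000035692, chromosome 4 from 156199424 to 156200818) encodes a ubiquitin-like protein that is attached to other proteins and is also secreted. It had 25.7 TPM alone and 14.5 TPM in co-culture, a ratio of -0.79 at the 3.68th percentile of detected genes, and it was between -0.66 and -0.96 under the other pseudocounts and scalings. Among the enzymes that attach ISG15, Uba7 and Ube2l6 had higher and Herc6 lower values in co-culture. Uba7, its activating enzyme, had 1.0 TPM alone and 2.76 TPM in co-culture (ratio 0.91), and Ube2l6, its conjugating enzyme, had 8.27 TPM and 14.0 TPM (ratio 0.69). Herc6, the ligase in mouse, had 1.42 TPM and 1.12 TPM (ratio -0.19). Usp18, the protease that removes ISG15 and restrains the interferon receptor, was under the detection limit at 0.10 TPM and 0.33 TPM. Isg15 and Herc6 thus had negative ratios, and Uba7 and Ube2l6 positive ones, in this pair of libraries. Uba7 and Herc6 lie near the detection limit, and Ube2l6 and Herc6 were chosen after their values were seen.

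The OAS genes encode proteins that bind double-stranded RNA, and OAS1A then makes a short messenger of linked adenylates. Oasl2 (ENSMUSG00000029561, chromosome 5 from 114896936 to 114912234) had 0.51 TPM alone and 2.11 TPM in co-culture, the only member past 2-fold at a ratio of 1.04. It passed the detection limit through the co-culture library alone, so it had to differ. Its ratio was 0.37 with a pseudocount of 5, 0.97 with the median ratio scaling and 0.92 with TMM scaling. Its neighbour Oasl1 had 2.08 TPM alone and 1.23 TPM in co-culture (ratio -0.47), and both genes lie near the detection limit. Oas1a had 6.39 TPM and 7.11 TPM, a ratio of 0.13 that turned to -0.03 with TMM scaling. Eif2ak2, the gene of the RNA-activated kinase PKR, had 2.98 TPM and 6.96 TPM (ratio 1.0).

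**Figure D3:**
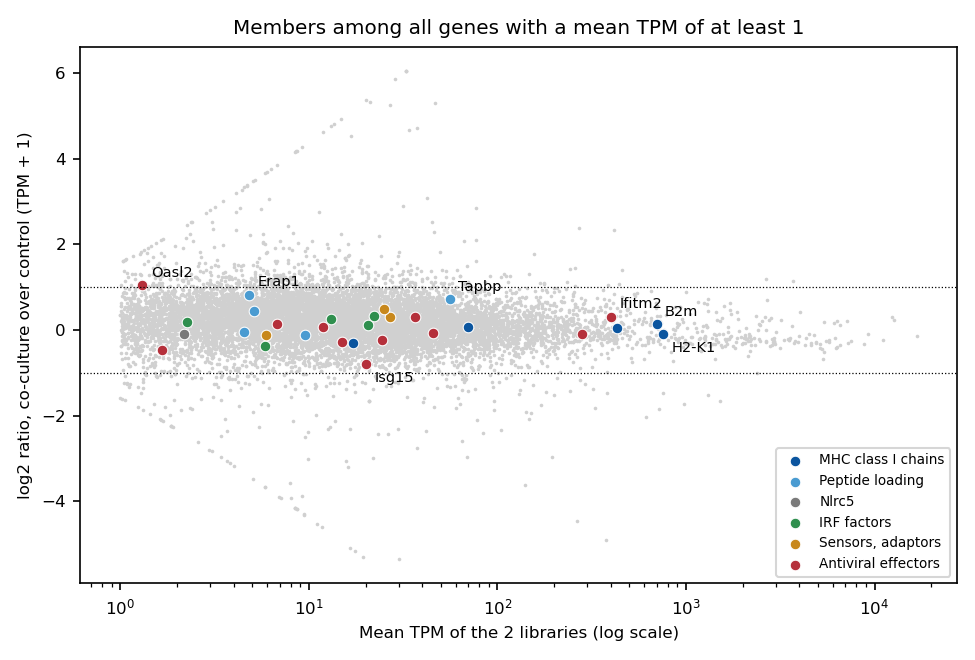
log2 ratio of co-culture over control (TPM + 1) against the mean TPM of the 2 libraries on a log axis, for all 11258 detected genes in grey and the 30 detected members in colours by role. The dotted lines mark 2-fold. Of the members, 26 lie within 1.5-fold. Oasl2 is at the low end just past the upper line, and Isg15 has the lowest ratio, at the 3.68th percentile. H2-K1, H2-D1 and B2m are at the high end near 0.

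Several effectors known for strong induction by interferon were close to 0 in both libraries. There were 14 members with a mean under 1 TPM, and their values ran from 0 to 1.08 TPM. Ifit1, Ifit2 and Ifit3 encode tetratricopeptide proteins that bind viral RNA. Ifit1 had 0.14 TPM alone and 0.04 TPM in co-culture, Ifit2 had 0.09 TPM and 0.14 TPM, and Ifit3 had 0.09 TPM and was listed at 0. Rsad2, the gene of viperin, had 0.14 TPM and 0.17 TPM, and Ifi44 had 0.02 TPM and 0.03 TPM. Mx1 was listed at 0 in both libraries, and Mx2 had 0.04 TPM alone and was listed at 0 in co-culture. As background, many inbred mouse strains carry defective alleles of the Mx genes. Parp14, an ADP-ribosyltransferase, had 0.15 TPM alone and 0.63 TPM in co-culture. The guanylate-binding proteins are large GTPases that attack the vacuoles of intracellular pathogens and respond above all to interferon gamma. Gbp2 had 0.41 TPM and 0.70 TPM, Gbp3 had 0.18 TPM and 0.24 TPM, and Gbp7 had 0.02 TPM in each. TPM keeps no record of depth, so how many reads stand behind such values is unknown, and no ratio is drawn from them.

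Promoter sequences of abundant and of near-silent members were searched for the letters of the ISRE and of the GAS. RefSeq start sites (build GRCm38.p6) were found for 35 of the 44 members, in 44 windows of 300 bases that run from 250 bases before to 50 bases after each start. The windows were searched on both strands for the ISRE core GAAANNGAAA, which reads TTTCNNTTTC on the other strand, and for the GAS word TTCNNNGAA, which is its own reverse complement. Matches may overlap each other. The ISRE core occurred in the windows of 17 of the 35 members, or 48.6%, against 3.99% of all 27025 genes of the promoter table. The GAS word occurred in 12 of 35, or 34.3%, against 9.55% of all genes. Of the 26 detected members with a window 10 held an ISRE core, and of the 9 undetected ones 7 did. A match is a string of letters, not a shown binding site. Below, the 150 bases before the start are given 5′ to 3′ on the strand of the gene, with ISRE cores in capitals, for 3 detected members with the core, 3 undetected members with the core and Oasl2, which has none in its window.

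The first 3 are detected. They lie at chr4:156200819-156200968 on the minus strand (Isg15), chr8:71537473-71537622 on the minus strand (Bst2) and chr2:122147537-122147686 on the plus strand (B2m).
Isg15: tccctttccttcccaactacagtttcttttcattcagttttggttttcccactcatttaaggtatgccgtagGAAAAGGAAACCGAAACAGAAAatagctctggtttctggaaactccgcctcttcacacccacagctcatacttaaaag
Bst2: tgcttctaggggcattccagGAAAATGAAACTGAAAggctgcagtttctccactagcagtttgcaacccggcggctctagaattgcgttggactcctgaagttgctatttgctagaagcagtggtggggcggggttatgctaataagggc
B2m: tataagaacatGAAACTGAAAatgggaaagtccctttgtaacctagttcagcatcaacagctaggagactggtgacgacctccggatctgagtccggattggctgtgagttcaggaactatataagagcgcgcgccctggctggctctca
The next 3 are not detected. They lie at chr19:34640739-34640888 on the plus strand (Ifit1), chr12:26456453-26456602 on the minus strand (Rsad2) and chr3:142530186-142530335 on the plus strand (Gbp7).
Ifit1: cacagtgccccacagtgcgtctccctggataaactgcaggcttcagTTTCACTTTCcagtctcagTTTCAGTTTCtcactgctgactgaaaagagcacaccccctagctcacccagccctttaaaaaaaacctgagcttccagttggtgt
Rsad2: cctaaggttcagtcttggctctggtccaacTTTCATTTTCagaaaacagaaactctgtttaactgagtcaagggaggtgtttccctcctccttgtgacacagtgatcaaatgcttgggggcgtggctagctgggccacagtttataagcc
Gbp7: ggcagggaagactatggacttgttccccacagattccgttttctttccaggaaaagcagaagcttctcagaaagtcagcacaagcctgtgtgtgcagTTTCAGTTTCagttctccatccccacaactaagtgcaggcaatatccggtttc
The last lies at chr5:114896784-114896933 on the plus strand.
Oasl2: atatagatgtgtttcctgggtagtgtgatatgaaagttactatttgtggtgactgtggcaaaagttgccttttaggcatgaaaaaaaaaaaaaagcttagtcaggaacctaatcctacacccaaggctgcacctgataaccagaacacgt
Isg15 held 3 overlapping cores whose first bases are at -78, -72 and -66, counted from -1 just before the start. Bst2 held 2 that overlap, and B2m held a single one with its first base at -139. Ifit1 held 2 separate cores, and Rsad2 and Gbp7 held 1 each. The core thus stood upstream of B2m, at 666 TPM and 731 TPM, and of Gbp7, at 0.02 TPM in each library. It stood upstream of Isg15 with its ratio of -0.79, and it was not found in the window of Oasl2 with its ratio of 1.04. The window of Erap1, whose ratio was 0.83, also held a core, so cores stood beside ratios of both signs. A relation between the core and the ratio was not tested. All 3 Gbp genes held the core, as did 8 of the 16 effectors that have a window. H2-K1 and H2-D1 held neither word in these windows, which says only that those letters are not there.

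**Figure D4:**
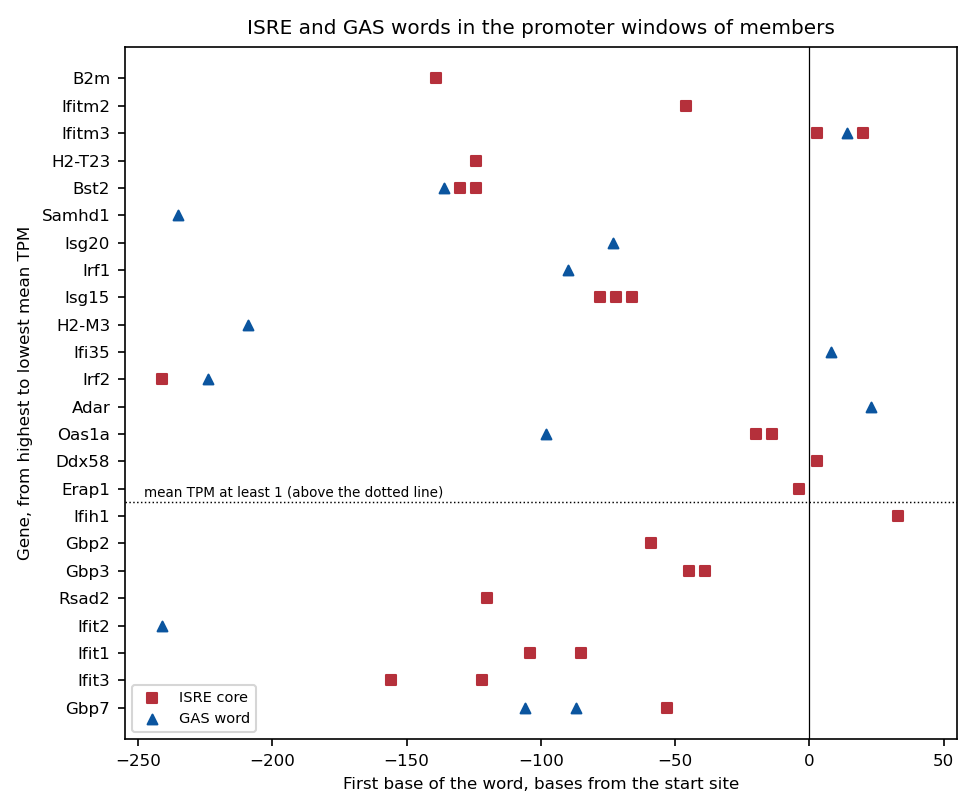
Distance from the RefSeq start site, in bases, of the first base of each ISRE core (red squares) and GAS word (blue triangles) in the 300-base windows of the members that hold either word. Genes are ordered from the highest to the lowest mean TPM, and those under the dotted line have a mean under 1 TPM. ISRE cores occur both in abundant members such as B2m and in near-silent ones such as Ifit3 and Gbp7.

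Other genes of the pathway were counted from lists of non-members. All 10 interferon genes listed, among them Ifnb1, Ifng and Ifnl2, stood at 0 in both libraries. Of the 14 receptor and JAK-STAT genes 13 were detected, 10 of them with a higher value in co-culture, 1 at least 2-fold higher and 0 at least 2-fold lower, with a median of 0.33. Among all detected genes 64.5% had a higher value, 4.95% were at least 2-fold higher and the median was 0.17. Both chains of the type I receptor were present, Ifnar1 at 16.3 TPM alone and 19.5 TPM in co-culture and Ifnar2 at 39.0 TPM and 30.2 TPM. Jak2, the kinase of the interferon gamma receptor and of many cytokine receptors, had 6.90 TPM and 17.8 TPM, a ratio of 1.25. Ifngr2, the second chain of that receptor, had a ratio of 0.83, and Ptpn6, a phosphatase that restrains JAK signals, one of 0.78. Stat2, a subunit of ISGF3 like Irf9, had 1.53 TPM alone and 3.29 TPM in co-culture (ratio 0.76), whereas Irf9 was lower as given above.

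Of the 11 other sensing genes 10 were detected, 8 of them higher in co-culture and 2 of those at least 2-fold. Their median was 0.46, and 0.12 over the genes with a mean of at least 10 TPM. Among all detected genes 64.5% had a higher value and 4.95% were at least 2-fold higher. The all-gene median was 0.17, and 0.11 at a mean of at least 10 TPM. One of the 2 sensing genes past 2-fold was Tlr3, the endosomal receptor of double-stranded RNA. It had 0.63 TPM alone and 2.34 TPM in co-culture (ratio 1.03). The kinase gene Ikbke, which acts beside TBK1 on IRF3, had 7.17 TPM and 15.01 TPM (ratio 0.97), and the ubiquitin ligase gene Trim56 had a ratio of 0.77. Cgas, which makes the messenger that STING binds, was low at 2.54 TPM and 3.26 TPM. Tbk1 had 7.33 TPM alone and 10.9 TPM in co-culture. Transcripts of Cgas, Tmem173, Tbk1 and Irf3 were thus detected, and Ifnb1, the classical target of their route, was listed at 0. Activity of the route was not measured.

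The wider list of 52 stimulated genes had 30 detected members, 23 of them higher in co-culture. Of these 2 were at least 2-fold higher, 0 were at least 2-fold lower and 13 were at least 1.5-fold higher, with a median of 0.43 that was 0.21 over the genes with a mean of at least 10 TPM. Of all detected genes 64.5% had a higher value, 4.95% were at least 2-fold higher and 18.7% at least 1.5-fold higher. Their median was 0.17. The 4 largest ratios were those of Irf8, an interferon gamma-responsive factor (4.00 TPM alone and 9.05 TPM in co-culture, ratio 1.01), Eif2ak2 at 1.0, Ifi204, a DNA-binding protein gene, at 0.92, and Uba7 at 0.91. Cxcl9 was listed at 0 in both libraries and Cxcl10, a chemokine that interferon induces strongly, had 0.56 TPM and 0.22 TPM. The divergent pair Parp9 and Dtx3l, chosen after their values were seen, had ratios of 0.61 and 0.75. Their spans overlap on opposite strands, and reads of the overlap cannot be told apart because strandedness is unknown. Of the 20 other MHC class I genes 15 were detected, with a median of 0.15, and 9 of them were higher. At the 2-fold threshold 0 were higher and 1 was lower, against 4.95% and 2.14% of all detected genes. The gene past the threshold was Calr, a chaperone of the ER that also belongs to the peptide-loading complex, with 1107 TPM alone and 397 TPM in co-culture (ratio -1.48). Its partner in that complex Pdia3 had a ratio of -0.66, Mr1, which presents vitamin metabolites, had 0.87 and H2-Q6 had 0.53. Among the other H2-Q genes, H2-Q7 had a ratio of -0.11. H2-Q1, H2-Q2, H2-Q4 and H2-Q10 lay between 0.005 and 0.22. How far reads can be separated among the H2-Q genes was not tested.

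**Figure D5:**
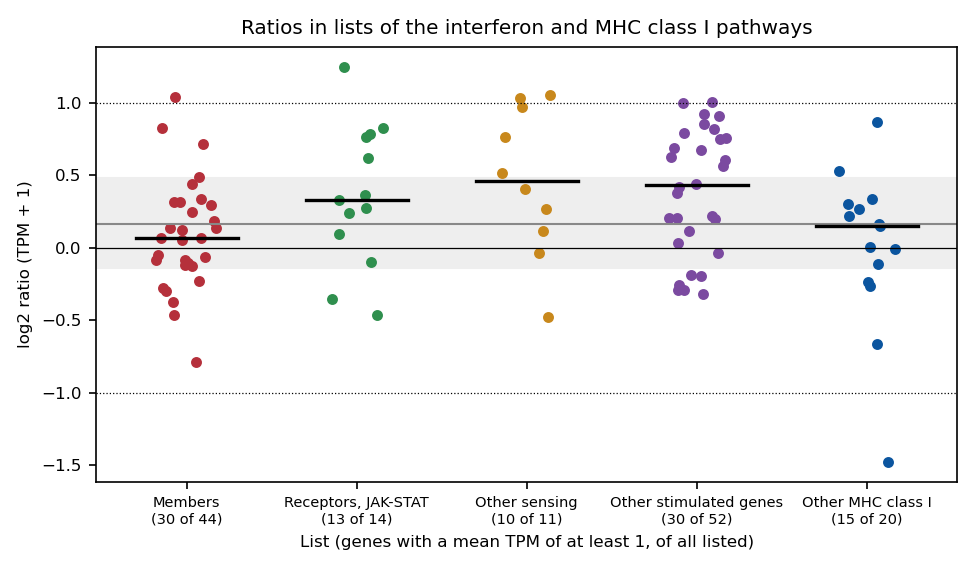
log2 ratio of co-culture over control (TPM + 1) for the detected genes of the members and of 4 lists of other pathway genes, 1 point per gene spread sideways at random, with the list median as a black bar. The grey band and line give the 25th to 75th percentile and the median of all detected genes, and the dotted lines mark 2-fold. The member median is 0.07, and the medians of the receptor, sensing and other stimulated lists are 0.33, 0.46 and 0.43.

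Several members have near copies whose reads could be divided between genes. Among the 50-base stretches of a member's own transcripts (GENCODE M21), 9 of 44 members shared at least 5% with transcripts of other genes and 26 shared under 1%. The shared part was 57.6% for Oas1a, with Oas1g as its closest match, 51.2% for Ifit3, with Ifit3b, and 48.5% for Ifitm2. It was 9.63% for H2-K1, 12.8% for H2-D1 and 13.6% for H2-T23, which share stretches with H2-Q and H2-T genes. It was 0% for B2m and Erap1, 0.138% for Oasl2 and 3.96% for Isg15. The reference genome is that of C57BL/6J mice, whereas the 4T1 line comes from BALB/c, a strain with another H-2 haplotype. Reads of the heavy chains were therefore counted against alleles of another haplotype, in both libraries alike, and the effect on the levels was not tested.

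Markers of other cell types were measured because macrophages express many of these genes. Of 20 macrophage markers 18 were under 1 TPM on average, and 11 were listed at 0 in both libraries, among them Adgre1, Ptprc and Tyrobp. The summed level of the list was 66.7 TPM alone and 40.6 TPM in co-culture, nearly all of it from Cd68 and Cd14. Of 6 MHC class II pathway genes 4 were listed at 0 in both libraries, namely H2-Aa, H2-Ab1, H2-Eb1 and H2-DMb1. The 2 detected were Cd74, with 9.93 TPM alone and 6.87 TPM in co-culture, and H2-DMa, with 1.10 TPM and 2.05 TPM. All 7 lymphoid markers were under 1 TPM. Of 8 epithelial markers 5 were detected, with Krt8 at 548 TPM and 630 TPM and Krt18 at 439 TPM and 484 TPM, while Epcam was listed at 0 and Cdh1 was at most 0.04 TPM. In bulk RNA fewer cells that express a gene and less RNA per cell cannot be told apart.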

How the data were processed

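RNA of 1 control library and 1 co-culture library of 4T1 cells was sequenced. The authors deposited 1 table of TPM values with a column per library and 2 decimals. Listed in the submitters' processing notes are RSEM 1.2.31, HISAT2 2.1.0 and the build GRCm38.p5, with no role or order. The sources used here name no annotation, strandedness or filter. The library size is unknown, since TPM keeps no depth, so no interval or floor was computed. Of 52796 rows 51912 carry Ensembl identifiers, and 51633 of these matched a GENCODE M21 symbol. The listed Mb21d1 was found as Cgas through RefSeq synonyms. Positions are GENCODE M21 (GRCm38), 1-based.

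From the deposited values, log2 ratios with a pseudocount of 1 were computed (Python 3.11.15, pandas 2.3.3). Genes with a mean of at least 1 TPM counted as detected. With 1 library per group no test was run. The members and lists were chosen with earlier results of these data known. All members are named, with up to 4 genes per other list by largest ratio, of which some are not reported here. Others, including the genes of the ISG15 and OAS routes, the interferon receptors and Cxcl genes, were chosen after their values were seen. The calculation was tested on simulated data. Alternatives were pseudocounts of 0.1 and 5, other detection limits, 3 other scalings, a threshold of 1.5-fold, means and leaving out genes with near copies.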

Additional observations from a re-analysis of the deposited data

How the results depend on the processing

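The count of members at least 2-fold higher was 1, Oasl2, and became 0 with a pseudocount of 5, with a minimum mean of 10 TPM, with the median ratio scaling and with TMM scaling. At 1.5-fold it was 3, and the count of lower members was 1 in place of 0. The median ratio scaling divided the co-culture TPM by 0.12 on the log2 scale and TMM scaling by 0.19. Under these 2 scalings the median became -0.059 and -0.133 for all MHC class I genes, -0.059 and -0.133 for the chains alone, -0.18 and -0.25 for the antiviral effectors, 0.20 and 0.13 for sensors and adaptors, and -0.0435 and -0.114 for all members. The median of the interferon regulatory factors was 0.0489 with TMM scaling. That of peptide supply was 0.28 with TMM scaling, 0.26 with a pseudocount of 5 and 0.72 with a minimum mean of 10 TPM, where fewer genes were left. Of the 30 single ratios 3 changed sign with the median ratio scaling and 6 with TMM scaling, and 0 did so with the other pseudocounts or when mitochondrial and the 20 most abundant genes were left out of the scaling. The medians of these member groups moved by less than 0.1 under the other alternatives. Over the alternatives the medians ranged from 0.15 to 0.36 for receptors and JAK-STAT genes, from 0.12 to 0.50 for other sensing genes, from 0.14 to 0.50 for other stimulated genes and from -0.03 to 0.17 for other MHC class I genes. No paired analysis was possible because each group has 1 library. The depth is unknown, so the reads behind the 14 members with a mean under 1 TPM cannot be counted.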
